A study of Mus musculus with 13 samples.

Results

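The imprinted Dlk1-Dio3 cluster on mouse chromosome 12 encodes one of the largest groups of microRNAs (miRNAs) in the genome, and its members were followed here in Argonaute (AGO) immunoprecipitates from mouse cortex after stroke. A list of 48 mature cluster miRNAs was matched by name to the deposited miRNA count table, and 40 of them had a row among its 1705 miRNAs. Their names carry the mouse prefix mmu-, which is left out in most of the text. The 8 names without a row were miR-136-3p, miR-299a-5p, miR-323-3p, miR-341-3p, miR-369-5p, miR-411-5p, miR-543-3p and miR-668-3p. The measurement was AGO CLIP, in which tissue is irradiated with ultraviolet light, AGO is precipitated with the RNA crosslinked to it, and that RNA is sequenced as short tags. The count of a miRNA therefore reports how many tags came from AGO, not its level in whole tissue. The animals were wild-type C57BL6 mice aged 7 to 8 weeks. There were 5 libraries from the ipsilateral cortex of mice that had middle cerebral artery occlusion (MCAO) by a filament for 35 min. A further 4 libraries came from the contralateral cortex after MCAO, and 4 came from cortex after sham surgery, in which arteries were exposed and no filament was inserted. All animals were anaesthetised with isoflurane, and MCAO animals were killed after about 3 h in recovery cages. In every group AGO:RNA complexes of high and low molecular weight, labelled as about 110 to 150 kDa, were pooled. Libraries carry replicate numbers, and per the series description each set of replicates was prepared separately from a distinct day of surgery. In dissected cortex, fewer cells of a type and less RNA per cell cannot be told apart.

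The cluster's miRNAs are transcribed from the maternal chromosome only, as parts of the long noncoding RNAs Meg3, Rian and Mirg and of the transcript antisense to Rtl1, while Dlk1, Rtl1 and Dio3 are expressed from the paternal copy. They are abundant in the brain of placental mammals. Neuronal activity induces the block that runs from miR-379 to miR-410, here called the Mirg block, through the transcription factor Mef2, and miR-134-5p, studied in rat hippocampal neurons, limits dendritic spine size by repressing Limk1. An miRNA finds its targets mainly through its seed, a short stretch near its 5′ end that pairs with messenger RNA.

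Mature sequences from RefSeq (GRCm38.p6) were found for 37 of the 40 members, and the 37 had 37 distinct seeds, so no pair of them is read here as one target family. The sequences below are of the 4 members with the highest levels, of 2 just below them, of 3 members well known from brain and of 2 named with their target sites further on. Each is written 5′ to 3′ with the seed, bases 2 to 8, in capitals.
mmu-miR-494-3p: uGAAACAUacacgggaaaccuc
mmu-miR-544-3p: aUUCUGCAuuuuuagcaagcuc
mmu-miR-410-3p: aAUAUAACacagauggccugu
mmu-miR-376a-3p: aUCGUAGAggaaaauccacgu
mmu-miR-541-5p: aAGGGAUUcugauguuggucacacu
mmu-miR-376b-3p: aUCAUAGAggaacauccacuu
mmu-miR-127-3p: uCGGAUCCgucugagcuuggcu
mmu-miR-134-5p: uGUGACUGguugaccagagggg
mmu-miR-434-3p: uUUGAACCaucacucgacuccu
mmu-miR-329-3p: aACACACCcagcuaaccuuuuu
mmu-miR-495-3p: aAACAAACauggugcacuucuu
On the plus strand of GRCm38 (mm10), miR-494-3p lies at chr12:109715367-109715388, miR-544-3p at chr12:109729371-109729392, miR-410-3p at chr12:109743764-109743784 and miR-376a-3p at chr12:109723824-109723844, all in the Mirg block. The 37 located members span chr12:109585818-109743784. miR-376a-3p and miR-376b-3p, both 21 bases long, differ by 3 substitutions counted from the 5′ end, G4A, A13C and G20U, written with the miR-376a-3p base first. G4A lies in the seed. In brain, RNAs of the miR-376 family are also known to be edited from adenosine to inosine within the seed. How tags with mismatches were assigned is not given in the sources used here.

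The 13 libraries held between 3851 (ipsilateral replicate 5) and 61708 (contralateral replicate 1) miRNA tags, and every row of the table held at least 50 tags over all libraries. The level of a miRNA is given as tags per 10000 miRNA tags of its library, its share, or as a multiple of the library's median miRNA count. That median was 1 tag in ipsilateral replicate 5 and between 5 and 24 tags in the other libraries. The replicate 1 libraries of the 3 groups stood apart: 50.4% to 60.4% of their tags in AGO peaks were in introns or between genes, against 17.5% to 44.2% in the other 10. Among 7 neuronal marker miRNAs, miR-124-3p averaged 29.1 times the median, miR-9-3p 4.29, miR-137-3p 3.27, miR-9-5p 3.20, miR-138-5p 2.86, miR-7a-5p 1.39 and miR-128-3p 0.623. Of miRNAs of other tissues, the liver miRNA miR-122-5p averaged 0.890 times the median and the muscle miRNAs miR-206-3p and miR-1a-3p 1.29 and 0.391 times. The oligodendrocyte miRNA miR-338-3p averaged 0.597 times. Of the myeloid markers, miR-155-5p averaged 1.90, miR-142a-5p 1.87, miR-223-3p 1.43 and miR-142a-3p 0.804 times the median. Of the red cell markers, miR-144-3p averaged 1.63 and miR-451a 1.31 times the median, and the endothelial miR-126a-3p averaged 0.457 times. Levels up to 1.29 were thus also seen for the liver and muscle miRNAs, and levels up to 1.90 for the myeloid ones.

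One member stood far above the others. mmu-miR-494-3p averaged 17.2 times the library median over the 13 libraries and was the 7th of 1705 miRNAs. It is followed by mmu-miR-544-3p at 2.07, mmu-miR-410-3p at 2.04 and mmu-miR-376a-3p at 2.01 times the median, which were the only other members at 2 or more. In ipsilateral replicate 5, with its median of 1 tag, these 3 stood at 3, 5 and 6 times the median, on as many tags. Without that library none of the 3 would average 2 or more. Just below that threshold were miR-541-5p at 1.98, miR-376c-3p at 1.95 and miR-376b-3p at 1.86 times the median. In all, 4 of 40 members (10% of them) reached 2 times the median, against 14.4% of the 1665 other miRNAs. Below 1 were 24 of 40 (60%), against 47.4% of the 1665. The members' median level was 0.762 times the library median, that of 54 other cluster miRNAs in the table, among them opposite arms of the same hairpins, 0.889, and that of all other miRNAs 1.03. Of the 54 other cluster miRNAs, 57.4% were below 1. Another large imprinted miRNA group is the Sfmbt2 cluster on chromosome 2. The 49 miRNAs that carry the names of its families had a median of 1.66. Their positions were not checked, so some may lie elsewhere in the genome.

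**Figure D1:**
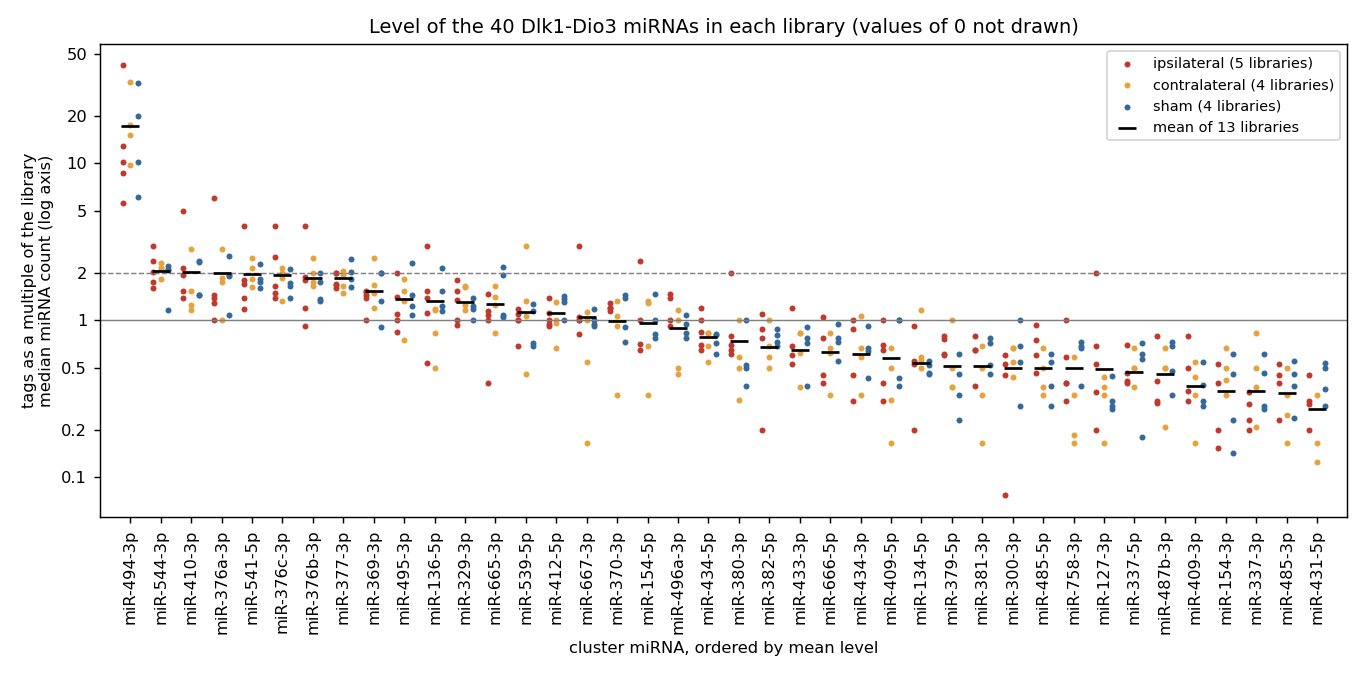
Level of each of the 40 cluster miRNAs in each library, as a multiple of the library median miRNA count on a log axis; points are libraries coloured by group, black bars are means of 13 libraries, and values of 0 are not drawn. miR-494-3p averages 17.2, and 3 further members average 2.01 to 2.07 with ipsilateral replicate 5 included. Of the 40 members, 24 (60%) lie below 1, against 47.4% of the other miRNAs.

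The members well known from brain were in the lower part of this order. miR-127-3p, which is antisense to Rtl1 and directs cleavage of its messenger RNA, averaged 0.492 times the median from 68 tags in all. miR-434-3p, from the same antisense transcript, averaged 0.611 from 110 tags, and miR-134-5p averaged 0.539 from 98 tags. The lowest member was miR-431-5p at 0.274. By position, the 30 members of the Mirg block had a median of 0.924, the 6 anti-Rtl1 members 0.631 and the 3 members of mir-337 and mir-665, which lie between Meg3 and the anti-Rtl1 miRNAs, 0.470, while miR-370-3p, within Rian, averaged 0.998. The top of the anti-Rtl1 members was miR-136-5p at 1.34 and that of the mir-337 and mir-665 members was miR-665-3p at 1.27. The spread within the Mirg block, 0.346 to 17.2, spans all but the lowest of the other members.

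miR-494-3p had 157, 47.1, 38.6, 25.2 and 33.8 tags per 10000 in ipsilateral replicates 1 to 5. It had 129, 65.7, 45.0 and 71.7 in contralateral replicates 1, 2, 4 and 5, and 121, 46.2, 26.9 and 87.2 in sham replicates 1, 2, 3 and 5. The groups overlapped, and replicate 1 was the highest library of each group. The group means were 60.4 ± 54.8 (SD, n = 5) in ipsilateral cortex, 77.8 ± 35.9 (n = 4) in contralateral cortex and 70.4 ± 42.3 (n = 4) in sham cortex. Within days of surgery, ipsilateral exceeded sham in replicates 1, 2 and 3 and was below it in replicate 5. It exceeded contralateral in replicate 1 and was below it in replicates 2, 4 and 5. The share of member tags that came from miR-494-3p ran from 13.5% in sham replicate 3 to 54.6% in ipsilateral replicate 1.

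The other 3 high members varied less between libraries. miR-544-3p had 8.92, 9.46, 7.88, 7.19 and 7.79 tags per 10000 in ipsilateral cortex, 8.43, 10.0, 8.39 and 8.88 in contralateral cortex, and 8.05, 5.28, 9.23 and 9.69 in sham cortex. The groups overlapped and sham replicate 2 was the lowest. miR-410-3p had 8.06, 7.15, 8.67, 6.29 and 12.98 tags per 10000 in ipsilateral cortex, 6.00, 5.41, 5.34 and 11.6 in contralateral cortex, and 8.94, 6.53, 10.4 and 6.35 in sham cortex. Replicate 5 was the highest of both MCAO groups. miR-376a-3p had 5.47, 6.46, 5.78, 4.49 and 15.6 tags per 10000 in ipsilateral cortex, 7.29, 7.57, 4.57 and 11.6 in contralateral cortex, and 9.66, 8.80, 8.43 and 4.68 in sham cortex. The value of 15.6 rests on 6 tags, and the 12.98 of miR-410-3p in the same library on 5. In replicate 5, miR-376a-3p was again the highest library of both MCAO groups and the lowest of the sham group.

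Among the members just below 2 times the median, miR-541-5p had 5.18, 7.84, 5.26, 8.08 and 10.4 tags per 10000 in ipsilateral cortex, 6.32, 10.8, 8.39 and 8.88 in contralateral cortex, and 6.62, 7.29, 10.0 and 8.02 in sham cortex. miR-376b-3p had 3.45, 8.77, 8.15, 5.39 and 10.4 in ipsilateral cortex, 7.78, 7.57, 7.62 and 10.2 in contralateral cortex, and 7.51, 6.03, 6.02 and 7.68 in sham cortex. Its groups overlapped, and the ipsilateral libraries were the most spread out. miR-376c-3p had 9.49, 6.92, 7.36, 6.29 and 10.4 in ipsilateral cortex, 8.43, 8.11, 6.10 and 8.20 in contralateral cortex, and 8.05, 7.54, 7.63 and 6.01 in sham cortex. The 3 miR-376 members thus had close mean shares, 7.72 (miR-376a-3p), 7.43 (miR-376b-3p) and 7.73 (miR-376c-3p). Ipsilateral replicate 5 was the highest library of each, but on only 6, 4 and 4 tags in that order. For miR-376b-3p, contralateral replicate 5 was close behind at 10.2, from 15 tags.

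**Figure D2:**
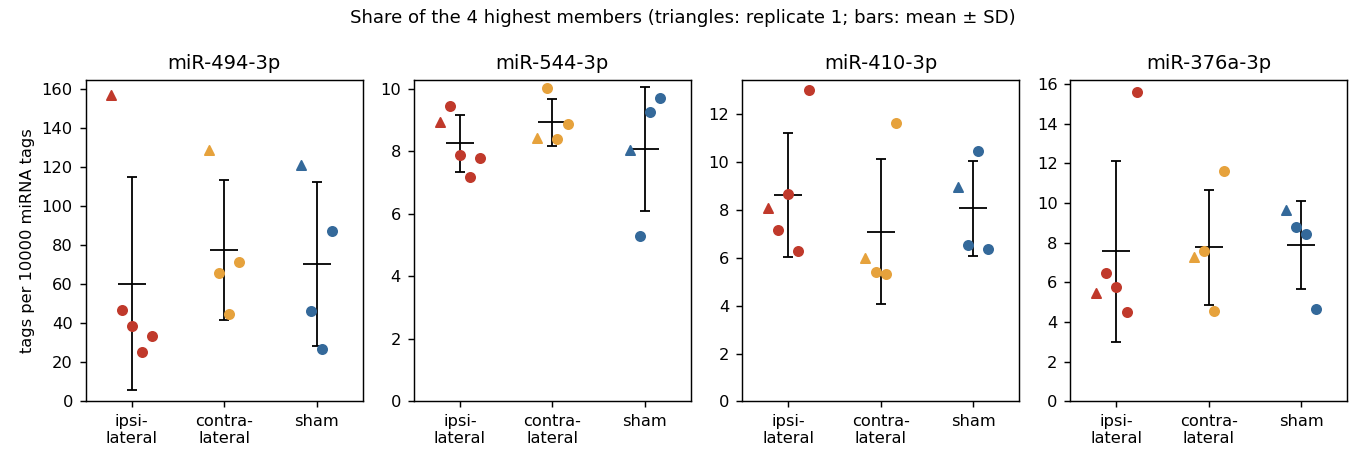
Tags per 10000 miRNA tags of the 4 highest members in each library, by group; triangles are replicate 1, dots the other replicates, and bars the mean ± SD (5 ipsilateral, 4 contralateral and 4 sham libraries). The groups overlap in all 4 panels, and for miR-494-3p the 3 triangles, at 157, 129 and 121, are the highest points of their groups.

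The arm of the hairpin that the list names was not always the one with more AGO tags. Both arms were in the table for 43 cluster hairpins, 27 of which had 1 arm among the members. The member arm had the higher mean level in 12 of these 27 hairpins and the other arm in 15. At mir-494 the 3p arm held nearly all tags: 3332 against 118 on the 5p arm, which was 3.42% of the pair (95% Wilson interval 2.86% to 4.08%), and the 3p arm was higher in 13 of 13 libraries. No other member hairpin was that one-sided. At mir-544 the 5p arm, which is no member, held 530 tags against 344, or 60.6% (57.4% to 63.8%), and was higher in 13 of 13 libraries. At mir-487b the 5p arm held 75.7% (70.6% to 80.2%) and at mir-127 69.0% (62.5% to 74.7%), although miR-487b-3p and miR-127-3p are the arms usually studied. At mir-376a the arms were close, with 52.7% on the 5p arm (48.8% to 56.5%), and at mir-410 43.2% of tags were on the 5p arm (39.1% to 47.4%). These intervals cover counting error only, because whether duplicate reads were collapsed is not given in the sources used here.

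Members rich in A and U had higher levels, as did miRNAs outside the cluster. Across the 37 members with a sequence, Spearman's rho between the percentage of A and U bases and the mean level was 0.460, and it was 0.464 without miR-494-3p. It was 0.429 across 1379 miRNAs outside the cluster. The 9 members with at least 60% A and U had a median level of 1.54 times the library median, and the 11 members under 50% had 0.539. Outside the cluster the medians were 1.68 over 205 miRNAs and 0.857 over 713. These correlations are across miRNAs measured in the same 13 libraries and are given as a description. The brain miRNAs miR-127-3p and miR-134-5p, each with 40.9% A and U, are among the 11 low-A and U members, and miR-369-3p, with 76.2%, was the most A and U rich at a level of 1.54.

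**Figure D3:**
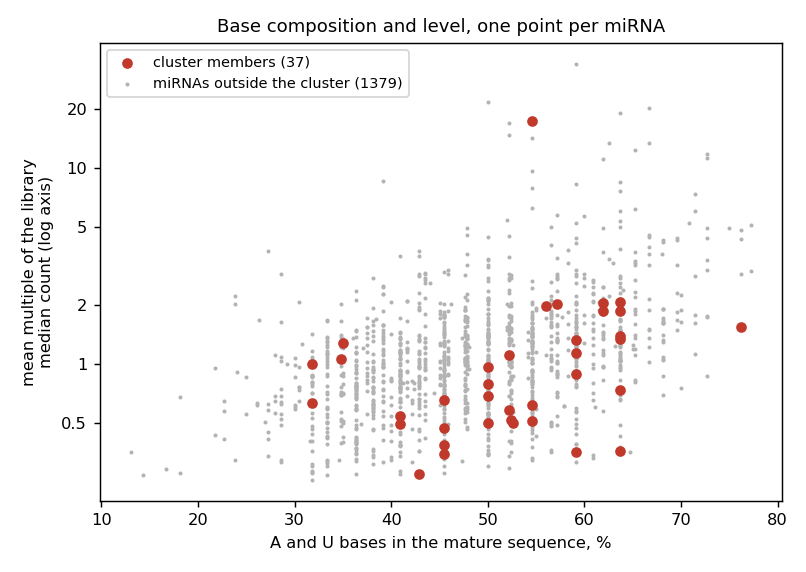
Percentage of A and U bases in the mature sequence against the mean multiple of the library median count (log axis), one point per miRNA. Red points are the 37 members with a sequence and grey points 1379 miRNAs outside the cluster; both sets rise to the right (rho 0.460 and 0.429), and miR-494-3p lies far above the other members at 17.2.

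The summed share of the cluster in AGO-bound miRNA tags overlapped between the groups. The members' summed share was 2.88%, 2.12%, 2.04%, 1.83% and 1.58% of miRNA tags in ipsilateral replicates 1 to 5. It was 2.64%, 2.22%, 2.14% and 2.25% in contralateral cortex and 2.67%, 2.20%, 1.99% and 2.45% in sham cortex. Group means were 2.09 ± 0.487% (SD, n = 5), 2.31 ± 0.221% (n = 4) and 2.33 ± 0.296% (n = 4), in that order of groups. Within each group the order of libraries was that of miR-494-3p, apart from ipsilateral replicates 4 and 5, which changed places. Without miR-494-3p the means were 1.49 ± 0.197% in ipsilateral, 1.54 ± 0.141% in contralateral and 1.62 ± 0.132% in sham cortex. In ipsilateral replicate 5, 19 of the 40 members had no tag.

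The first comparison asked whether the ischaemic hemisphere differs from sham cortex in the miRNAs held by AGO. In edgeR's quasi-likelihood test over 1427 miRNAs, 27 of the 40 members had enough tags to be tested. None of the 27 reached an adjusted p under 0.05, against a background of 0.0% of all tested miRNAs, and none had an unadjusted p under 0.05, against 2.45%. No member had a share above every sham library (background 0.491%) or below every sham library (0.491%) in all ipsilateral libraries. DESeq2 also called no member. The members' median log2 fold change was -0.03, with 11 above 0 and 16 below, and that of the 1400 other tested miRNAs was -0.00305, with 692 above 0.

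The member with the lowest fold change was miR-495-3p, one of the cluster miRNAs, with miR-329-3p, miR-487b-3p and miR-494-3p, whose inhibition increased vessel growth in a mouse model of limb ischaemia. It had 3.16, 5.08, 6.31, 4.49 and 5.19 tags per 10000 in ipsilateral libraries, against 8.76, 6.53, 4.82 and 5.35 in sham libraries. The groups overlapped. Its log2 fold change was -0.49 (SE 0.27, edgeR quasi-likelihood, unadjusted p = 0.0773, adjusted p = 1.00). Next were miR-376a-3p at -0.42 (SE 0.25) and miR-665-3p at -0.41 (SE 0.28). The top members were miR-496a-3p at 0.33 (SE 0.30), miR-380-3p at 0.28 (SE 0.36) and miR-329-3p at 0.13 (SE 0.25). miR-494-3p was at -0.18, and its SE of 0.53 was the largest of the 27; without sham replicate 1 it was at 0.30. By contrast, miR-544-3p was at 0.09 (SE 0.22) and miR-410-3p at -0.03 (SE 0.23). The SEs of the other 26 tested members ran from 0.21 to 0.39. The 3 comparisons share libraries, so their values are not independent of each other.

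The second comparison set the ischaemic hemisphere against the opposite hemisphere after MCAO. Again 0 of 27 members were called (background 0.0%), 0 had an unadjusted p under 0.05 (background 3.64%), and none separated the groups completely (background 0.491% higher and 0.561% lower). DESeq2 called none. The median log2 fold change was 0.01 with 14 members above 0 and 13 below. Over the 1400 other tested miRNAs it was -0.0036, with 689 above 0 and 711 below. miR-496a-3p was highest at 0.65 (SE 0.34, edgeR quasi-likelihood, unadjusted p = 0.0579, adjusted p = 1.00). It had 3.45, 4.61, 6.57, 6.29 and 0 tags per 10000 in ipsilateral libraries, against 1.78, 4.33, 5.34 and 2.05 in contralateral libraries. The ranges overlapped and the 0 came from the shallowest library. miR-667-3p at 0.46 (SE 0.33) and miR-409-5p at 0.43 (SE 0.45) followed. The lowest were miR-541-5p at -0.38 (SE 0.24), miR-376a-3p at -0.35 (SE 0.27) and miR-494-3p at -0.33 (SE 0.53). The related miR-376b-3p was at -0.27 (SE 0.24) and miR-376c-3p at -0.06 (SE 0.23).

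The third comparison set the contralateral hemisphere after MCAO against sham cortex. No member was called by edgeR (background 0.0%) or DESeq2, none of the 27 had an unadjusted p under 0.05 (background 3.01%), and none separated the groups (background 0.631% higher and 0.911% lower). Of the 27 members, 19 were below 0 and 8 above, with a median log2 fold change of -0.17. The 1400 other tested miRNAs had a median of -0.000768, with 703 below 0 and 697 above. Of the other cluster miRNAs, 39 were tested, with a median of 0.04 and 19 below 0. miR-409-5p was lowest at -0.70 (SE 0.42). It had 1.94, 1.35, 3.05 and 0.683 tags per 10000 in contralateral libraries, against 1.61, 4.52, 4.42 and 1.67 in sham libraries, so the groups overlapped. miR-136-5p, an anti-Rtl1 miRNA, was next at -0.57 (SE 0.29, edgeR quasi-likelihood, unadjusted p = 0.0615, adjusted p = 1.00). It had 4.54, 5.14, 3.81 and 2.05 tags per 10000 in contralateral libraries, against 4.65, 9.80, 6.83 and 5.01 in sham libraries. Only contralateral replicate 2 lay above the lowest sham libraries. miR-667-3p was at -0.45 (SE 0.32). The highest were miR-376b-3p and miR-329-3p, both at 0.24 (SE 0.24 and 0.25), and miR-539-5p at 0.22 (SE 0.36). The last rests on contralateral replicate 4, where miR-539-5p had 13.7 tags per 10000 against 1.78 to 5.47 in the other contralateral libraries. Without that library its fold change was -0.26.

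**Figure D4:**
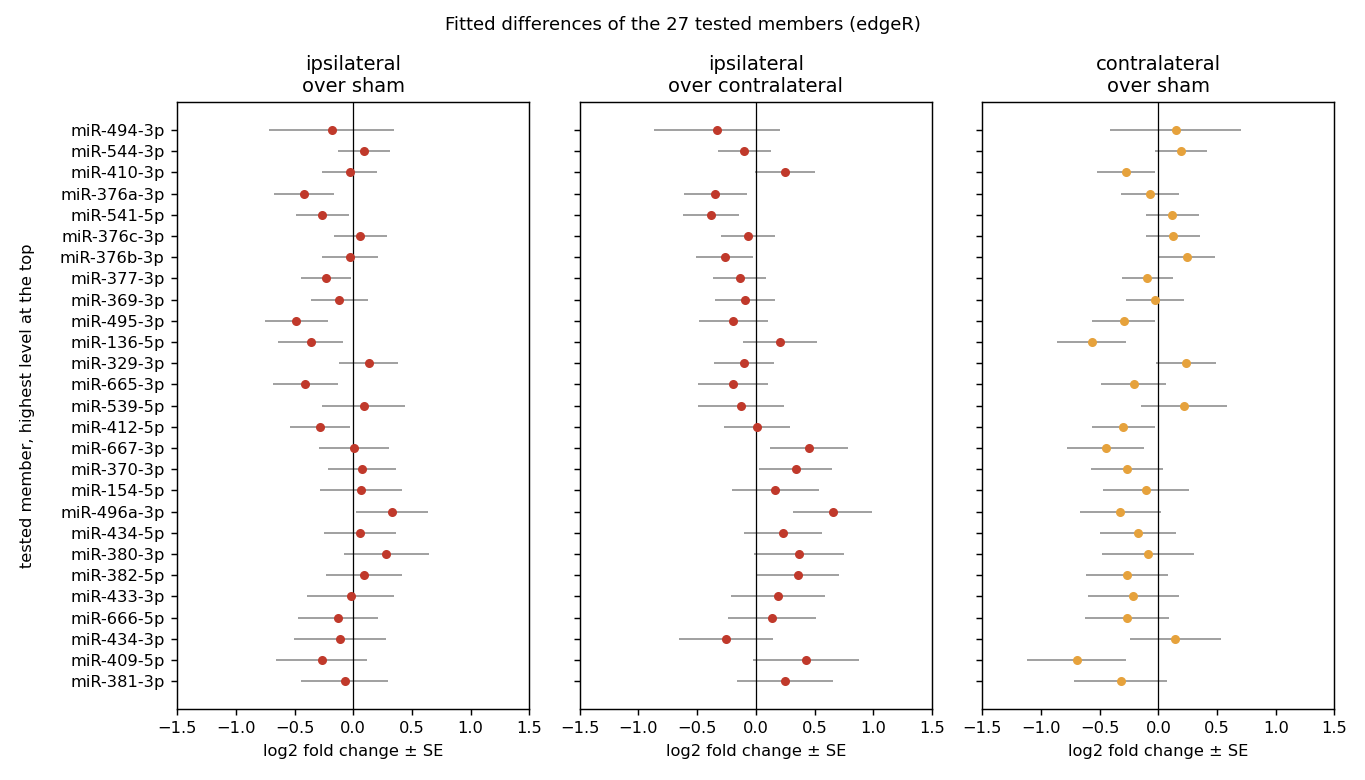
Fitted log2 fold changes (points) with their SE (bars) of the 27 tested members in the 3 comparisons, ordered from the highest level at the top. Values lie between -0.70 and 0.65, none passed the test, and miR-494-3p in the top row has the widest bars in all 3 panels.

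A change in what these miRNAs bind could also show in AGO peaks on messenger RNAs. For this, 6649 peaks in 3′ untranslated regions, with 115086 tags, were searched for a 7-base site on the annotated transcript. Sites paired with miRNA bases 2 to 8, or with bases 2 to 7 followed by A. For 31 of the 37 member seeds at least 10 peaks held a site, and the percentage of 3′ untranslated region tags in those peaks was compared between groups by an exact permutation test. Other miRNAs can share such sites, and letters in a peak do not show which miRNA bound there. No family passed after adjustment over all 1167 seeds of the table with enough peaks (background 0.0% in each comparison). The smallest possible exact permutation p was 0.0159 for the comparisons with ipsilateral cortex and 0.0286 for contralateral against sham. With 1167 seeds, none could pass unless a large part of them had such low p-values. The lack of calls therefore does not show that the families were unchanged. The lowest adjusted p of a member family was 0.487 for ipsilateral against sham, 0.718 for ipsilateral against contralateral and 0.974 for contralateral against sham.

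At an unadjusted p under 0.05 there were 2 member families for ipsilateral against sham (background 9.51% of seeds), 0 for ipsilateral against contralateral (6.34%) and 1 for contralateral against sham (2.74%). Sites of miR-329-3p (GGTGTGT or GTGTGTA, in 1.61% of the peaks searched) held 1.55%, 1.73%, 1.71%, 1.84% and 1.84% of tags in ipsilateral libraries, against 1.54%, 1.56%, 1.43% and 1.39% in sham libraries. Ipsilateral replicate 1 lay among the sham values and the other 4 lay above them (log2 ratio of means 0.23, two-sided exact permutation p = 0.0317, where the smallest possible is 0.0159). Sites of miR-541-5p (AATCCCT or ATCCCTA, in 0.647% of peaks) held 0.809%, 1.07%, 0.934%, 0.886% and 0.724% in ipsilateral libraries, against 1.05%, 1.47%, 1.41% and 1.26% in sham libraries (log2 ratio -0.55, exact permutation p = 0.0317). Of the ipsilateral libraries, replicate 2 overlapped the lowest sham library. Sites of miR-495-3p (GTTTGTT or TTTGTTA, in 3.01% of peaks) held 2.39%, 2.52%, 2.10% and 2.62% in contralateral libraries, against 3.00%, 2.74%, 3.27% and 2.63% in sham libraries. These did not overlap (log2 ratio -0.27), and the exact permutation p of 0.0286 is the smallest that 4 against 4 libraries allow. For the sites of miR-494-3p the means were 1.64 ± 0.125% in ipsilateral (n = 5), 1.68 ± 0.0699% in contralateral and 1.53 ± 0.191% in sham cortex (SD, n = 4 each).

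AGO peaks at the locus itself were mostly listed for Meg3, a maternally expressed long noncoding RNA. Between Dlk1 and Dio3, 44 peaks held 2183 tags over the 13 libraries, 37 of them, with 2056 tags, listed for Meg3. Of the others, 3 peaks with 59 tags were on Rian, and none was listed on Dlk1 or Dio3. The strongest peak listed for Meg3, at chr12:109564879-109564958, held 111 tags. It reaches into the span of Rtl1, which starts at 109564900. Peaks starting at 109565207, 109567283 and 109571032, with 35, 35 and 36 tags, lie within the spans of both genes. The peak strand is not used here, so the tags of these peaks cannot be given to Meg3 or Rtl1. Per 10000 peak tags, Meg3 peaks held 23.05, 35.0, 34.9, 26.7 and 55.6 in ipsilateral libraries. They held 68.7, 106, 12.6 and 120 in contralateral libraries and 56.3, 69.7, 35.2 and 47.4 in sham libraries. Means were 35.1 ± 12.6 (SD, n = 5), 76.9 ± 48.1 (n = 4) and 52.1 ± 14.6 (n = 4) in that order of groups. All groups overlapped, and contralateral replicate 4 was the lowest of the 13 libraries. No test of this sum was run.

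Of the member miRNAs, 2 had an AGO peak over their own hairpin. A peak at chr12:109742392-109742471 with 25 tags covered both arms of mir-541, in part for the 3p arm. It held 7 tags in ipsilateral, 10 in contralateral and 8 in sham libraries. A peak at chr12:109595302-109595381 with 9 tags covered mir-136 and mir-3071, hairpins that lie on opposite strands of the same DNA. The peak strand is not used here, so its tags cannot be given to either. The hairpin of mir-541 (RefSeq, GRCm38.p6, chr12:109742409-109742498, plus strand) is shown because its peak is the larger, with both mature arms in capitals.
mir-541 hairpin: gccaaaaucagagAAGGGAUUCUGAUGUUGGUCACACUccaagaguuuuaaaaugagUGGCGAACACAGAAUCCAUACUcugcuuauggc

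The pattern of miR-494-3p across libraries was most like that of miR-7058-3p, with Pearson's r of 0.849 over 13 libraries on log2(CPM + 100). It was followed by miR-690 (r = 0.806), miR-34b-5p (0.806), miR-6368 (0.781) and miR-7665-5p (0.777). No other cluster miRNA was among these 5. All points share the libraries and their depth, so the values are a description.

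miR-494-3p also shares a run of bases with ribosomal RNA. This was looked for after its level was seen. Its last 14 bases, positions 9 to 22, occur without a mismatch in the mouse 18S ribosomal RNA copy annotated as Gm42418 (Rn18s-rs5 in RefSeq). The match lies on the plus strand at chr17:39847610-39847623, in mm10. Both sequences are shown with the shared bases in capitals, the genomic one over chr17:39847602-39847631.
mmu-miR-494-3p: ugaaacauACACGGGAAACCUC
Gm42418: ttgactcaACACGGGAAACCTCacccggcc
Of 1469 miRNAs of the table with a sequence, 1 (0.0681%) shared 14 or more bases with that transcript, and that one was miR-494-3p. The longest match of another member was 8 bases, and the median was 7. Of the miRNAs with the most similar library pattern, miR-34b-5p matched 8 bases, miR-690 and miR-6368 matched 7, and miR-7058-3p matched 6. The seed of miR-494-3p is outside the shared stretch.

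No deposited AGO peak covered the 14 bases. The nearest, listed for Rn45s at chr17:39847488-39847567 with 6809 tags, lay 43 bases from them. Per 10000 peak tags, it held 104, 103, 60.7, 83.0 and 39.7 in ipsilateral libraries, against 333, 182, 150 and 197 in contralateral and 210, 122, 61.4 and 228 in sham libraries. All 4 contralateral libraries lay above all 5 ipsilateral ones. This peak was picked for its position, and how many of all peaks separate these groups was not counted. In the 10 libraries outside the replicate 1 set the share of miR-494-3p rose with this peak: Pearson's r was 0.925 (permutation p = 0.00013, adjusted over 5 relations 0.00065) and Spearman's rho 0.842 (permutation p = 0.00348, adjusted 0.0174). Leaving out the 2 libraries farthest from the median of the peak gave r = 0.828. Over all 13 libraries r was 0.618 and rho 0.758, and ipsilateral replicate 1 had the highest share of miR-494-3p beside 104 in the peak. No permutation test was run over all 13 libraries. The day-of-surgery sets hold too few libraries for a value within each. The permutations shuffled libraries freely across groups and days of surgery, so their p-values take no account of either. Neither the relation nor leaving out replicate 1 for it was planned in advance. The p-values over 10 libraries are therefore a description and do not count as a test. With the other Rn45s peaks together r was 0.401 (permutation p = 0.247). With the nearest peak, r was 0.398 for miR-544-3p, -0.411 for miR-410-3p and -0.265 for miR-376a-3p (permutation p = 0.258, 0.234 and 0.470). For miR-410-3p, leaving out the 2 farthest libraries gave r = -0.840, a value as large as that of miR-494-3p and of opposite sign. Whether tags of ribosomal RNA were counted as miR-494-3p was not tested.

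**Figure D5:**
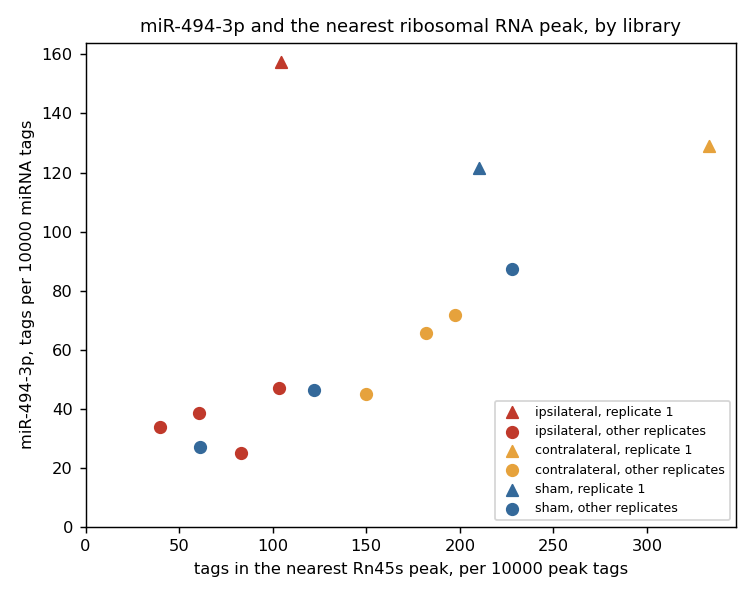
Share of miR-494-3p (tags per 10000 miRNA tags) against tags in the nearest Rn45s peak (per 10000 peak tags), one point per library, coloured by group; triangles are replicate 1. The 10 dots rise together (r = 0.925, against 0.618 over all 13 libraries). The 3 triangles lie above 120 on the vertical axis, with ipsilateral replicate 1 far from the trend of the dots.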

How the data were processed

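Per the labels, each library is AGO CLIP RNA from mouse cortex. The submitters' processing notes name Novoalign and mm10; no source used here gives their roles or how duplicate reads were handled. The deposited miRNA table and the deposited peak table hold raw tag counts per library, not normalized by the authors. Members and lists were chosen with earlier results of these data known. Counts were tested with edgeR 4.0.16 (R 4.3.3; TMM factors, filterByExpr, 3 groups in one fit of 13 libraries, quasi-likelihood test, two-sided, Benjamini-Hochberg over 1427 miRNAs, which hold 94.8% of tags). DESeq2 1.42.0 was an alternative. The biological coefficient of variation was 0.206. The SE is the absolute log2 fold change divided by the square root of F.

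Named members were those at 2 or more times the library median, the 3 nearest below, and the 3 highest and 3 lowest fold changes per comparison. The 5 miRNAs most like miR-494-3p were named by Pearson's r. Other members, miRNAs and peaks were named after their values were seen. Peak positions are given from 1, with annotation from GENCODE vM21 and RefSeq. The scripts were tested on simulated data. Same-numbered libraries come from one surgery day per the series description. Their deviations from group means correlated at r of -0.06 to 0.24 (median 0.09, 11 pairs), against a median of -0.04 for 45 pairs with different numbers. P-values of the group comparisons measure the spread between libraries prepared on different days.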

Additional observations from a re-analysis of the deposited data

Results flagged for a closer look

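For 23 quantities (shares of the named members, their sums, peak tags at Meg3 and near the ribosomal match, and 3 site families), the highest and lowest library of each group was compared with its nearest neighbour by Dixon's 95% limit. Of 69 groups, 6 held a library far from the rest, and chance gives about 1 in 20. All values are tags per 10000 miRNA tags. miR-494-3p had 157 in ipsilateral replicate 1, against 25.2 to 47.1 in the other ipsilateral libraries. miR-376a-3p had 15.6 in ipsilateral replicate 5, from 6 tags, against 4.49 to 6.46. miR-667-3p had 7.79 in ipsilateral replicate 5, from 3 tags, against 3.68 to 4.84. miR-410-3p had 11.6 in contralateral replicate 5, against 5.34 to 6.00. miR-376b-3p had 10.2 in contralateral replicate 5, against 7.57 to 7.78. miR-376c-3p had 6.10 in contralateral replicate 4, against 8.11 to 8.43. Of the 6 values, 4 came from replicate 5 of an MCAO group.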

How the results depend on the processing

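No member, miRNA or target-site family was called in any of the 3 comparisons under any setting run: other normalizations, no filter, DESeq2, 2 groups only, leaving out each library or replicate 1 of every group, and, for the fits across miRNAs, the replicate block, which changed no call (0 members). For target-site families some of these settings could not give a call. Without replicate 1 of every group, the smallest possible exact permutation p was above 0.05 in all 3 comparisons. The same held for contralateral against sham without 1 library of either group. At an unadjusted p under 0.05 there were at most 2 members: any in 8 of 21 settings for ipsilateral against sham (the block among them, with 1), in 6 of 21 for ipsilateral against contralateral and in 6 of 21 for contralateral against sham. Fold changes of single members changed sign as follows, and the cause was not tested. For ipsilateral against sham, miR-329-3p was -0.0518 and miR-410-3p 0.0615 without replicate 1 of every group, and miR-410-3p was 0.0392 with the block. For contralateral against sham, miR-376a-3p was 0.102 without replicate 1 of every group. Leaving out 1 library at a time gave ranges for ipsilateral against sham of -0.14 to 0.11 (miR-410-3p), -1.03 to 0.30 (miR-494-3p) and -0.0793 to 0.16 (miR-544-3p). For ipsilateral against contralateral, miR-494-3p ranged from -1.17 to 0.11. For contralateral against sham the ranges were -0.24 to 0.12 (miR-376a-3p), -0.29 to 0.62 (miR-494-3p) and -0.26 to 0.72 (miR-539-5p). The sign changed for miR-410-3p without ipsilateral replicate 2 or 4 or sham replicate 1 or 3, and for miR-544-3p without sham replicate 2. It changed for miR-494-3p against sham without ipsilateral replicate 4 or sham replicate 1, against contralateral without contralateral replicate 1, and between contralateral and sham without contralateral replicate 1 or sham replicate 2 or 3. It changed for miR-376a-3p without contralateral replicate 4 or sham replicate 1, and for miR-539-5p without contralateral replicate 4. Most members have fewer than 10 tags in the shallow libraries, which limits what could be detected.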
